A study of Mus musculus with 2 samples.

Results

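The genes of the contractile actin cytoskeleton described here encode the non-muscle myosin II heavy chains (Myh9 and Myh10), the myosin regulatory light chains (Myl9, Myl12a and Myl12b), tropomyosins (Tpm1, Tpm2 and Tpm4) and alpha-actinins (Actn1 and Actn4). They are followed through 88 of the 94857 merged open chromatin regions with at least 20 counts summed over both libraries. A region was taken where the nearest protein-coding gene span (RefSeq, GRCm38), at most 50 kb away, was 1 of these 10 genes, with distance 0 inside a span and the shortest span on ties. Of 97 regions near these genes, 9 held 4 to 16 summed counts and were left out, and the 88 kept held 20 to 672 with a median of 82.5. Actn1 had 22 of them, Myh9 21, Actn4 12, Tpm1 11, Myh10 7, Myl12b 7, Tpm4 4, Tpm2 2, and Myl9 and Myl12a 1 each.

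ATAC-seq, in which the transposase Tn5 cuts open chromatin and adds sequencing adapters, was run on basal keratinocytes of the epidermis between the hair follicles of mouse back skin, sorted as positive for the integrin ITGA6 and negative for CD34. The stretched library came from 1 CD1 mouse whose skin was under tissue stretching (labelled Exp-D2), and the control library from 1 CD1 mouse with no treatment. CD1 is an outbred stock, each library was made from 10000 sorted cells, and the sources used here give neither the age nor the sex of the animals. With 1 animal per group no value below could be checked against replicates or given a p-value, animal and treatment cannot be told apart, and every interval is an exact 95% Clopper-Pearson interval that covers counting error only. In a bulk library, more cells with an open site and a more open site in each cell cannot be told apart either.

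Non-muscle myosin II is a motor that pulls on actin filaments and generates the contractile force of epithelial cells. Its heavy chains carry the motor, and phosphorylation of the regulatory light chains switches it on. Tropomyosins lie along actin filaments and set which myosins and other proteins bind them, and alpha-actinins cross-link filaments in stress fibres and at cell junctions and focal adhesions. In keratinocytes this machinery acts on adhesions to neighbouring cells and to the basement membrane, and many of its genes are known targets of the factors SRF, YAP and TEAD.

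The windows from 250 bases before to 50 bases after the annotated start site are shown for the 3 light chain genes, whose start regions differed most from each other, and for the heavy chain pair. They are RefSeq sequences (GRCm38.p6), read 5′ to 3′ along the gene, with the start site at base 251. Capitals mark matches on either strand to the CArG box of SRF, to the AP-1 motif TGANTCA, and to the TEAD motif GGAATG or its reverse complement CATTCC. No matches overlapped.
Myl12a (chr17:71002484-71002783, minus strand): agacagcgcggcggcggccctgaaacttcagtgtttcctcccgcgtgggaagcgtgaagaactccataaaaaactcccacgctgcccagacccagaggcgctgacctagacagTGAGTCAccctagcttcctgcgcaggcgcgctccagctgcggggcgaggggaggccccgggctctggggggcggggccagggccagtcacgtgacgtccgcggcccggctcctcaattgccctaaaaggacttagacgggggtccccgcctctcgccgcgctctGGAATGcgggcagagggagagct
Myl12b (chr17:70990467-70990766, minus strand): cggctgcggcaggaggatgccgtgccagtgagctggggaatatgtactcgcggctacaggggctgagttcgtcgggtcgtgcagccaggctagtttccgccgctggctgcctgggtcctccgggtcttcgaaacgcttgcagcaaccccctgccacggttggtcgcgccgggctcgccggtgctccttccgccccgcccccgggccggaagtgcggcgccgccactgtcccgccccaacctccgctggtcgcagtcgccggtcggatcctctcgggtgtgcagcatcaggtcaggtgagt
Myl9 (chr2:156775214-156775513, plus strand): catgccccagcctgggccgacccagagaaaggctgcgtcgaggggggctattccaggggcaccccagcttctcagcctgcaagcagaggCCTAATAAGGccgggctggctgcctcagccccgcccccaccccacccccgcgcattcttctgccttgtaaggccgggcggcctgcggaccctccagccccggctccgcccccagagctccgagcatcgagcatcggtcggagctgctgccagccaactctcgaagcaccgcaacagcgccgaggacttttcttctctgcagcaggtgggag
Myh9 (chr15:77842126-77842425, minus strand): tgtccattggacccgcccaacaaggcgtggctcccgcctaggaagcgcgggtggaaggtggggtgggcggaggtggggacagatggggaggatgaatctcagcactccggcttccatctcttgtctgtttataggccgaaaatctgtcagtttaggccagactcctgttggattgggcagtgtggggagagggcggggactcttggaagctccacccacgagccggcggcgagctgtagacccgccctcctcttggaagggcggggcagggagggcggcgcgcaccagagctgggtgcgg
Myh10 (chr11:68691665-68691964, plus strand): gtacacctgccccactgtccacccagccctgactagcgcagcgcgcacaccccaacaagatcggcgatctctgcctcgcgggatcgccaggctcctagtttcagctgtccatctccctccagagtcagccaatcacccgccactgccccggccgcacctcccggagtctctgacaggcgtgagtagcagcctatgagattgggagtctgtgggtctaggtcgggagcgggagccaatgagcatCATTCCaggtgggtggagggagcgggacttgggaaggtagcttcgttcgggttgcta
Among the 10 windows, Myl12a held TGAGTCA from 137 bases before the start and GGAATG from 27 bases after it. Myl9 held the only CArG box, CCTAATAAGG, from 161 bases before its start. Actn4 (not shown) held TGAATCA and CATTCC, and Tpm1 (not shown) and Myh10 held 1 TEAD motif each. Of all 21263 windows of protein-coding genes, 1.52% held a CArG box, 6.99% TGANTCA and 13.6% GGAATG, against 1, 2 and 4 of the 10 windows here. The GC content of the 10 windows lay between 62.7% in Myh10 and 76.0% in Tpm4, above the 56.3% median of all windows. A match describes letters in the window and does not show that a factor was bound.

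The libraries were scaled with TMM factors over all 109257 regions, which puts the median region near a fold of 1, and a fold is stretched over control. The raw counts of all regions summed to 11803785 in the stretched and 8820178 in the control library, and a set of 10 regions with over 10000 counts held 48.9% and 34.5% of them. With scaling by all counts the median log2 fold over all regions was -0.50, and with scaling by the counts outside those 10 regions it was -0.14, so folds below are relative to the median region. All 6 basal keratinocyte markers (Krt5, Krt14, Itga6, Itgb4, Trp63 and Col17a1) had a listed peak within 1 kb of a gene end in both libraries. All 4 hair follicle markers also had one in both, Cd34 among them with 191 stretched and 155 control counts although the cells were sorted as CD34-negative, and the 4 summed to 398 and 444. So did 3 of 4 melanocyte markers, with 714 and 612 counts. Pmel alone held 541 and 406 of these, although the regions assigned to Pmel held 146 and 133. Dct had 152 and 177, Mlana 21 and 29, and Tyr none. Of 5 fibroblast markers 1 had such a peak, with 59 stretched and 109 control counts, a fold of 0.572 (0.409 to 0.792), and Pdgfra, Col3a1, Lum and Dcn had no count there. Of 4 endothelial markers Tek and Kdr had one in both libraries, with 64 and 105 counts in all, a fold of 0.644 (0.464 to 0.887), and Pecam1 and Cdh5 had no count. Of 4 immune markers Cd3g had one in the control alone, and the list summed to 20 and 42 counts, a fold of 0.503 (0.280 to 0.876). Cd3g held 9 and 39 of these and Cd3e 11 and 3, in opposite directions, and Ptprc and Cd207 had no count. The part of such cells in the values below was not tested. Regions count as higher or lower below when the fold was at least 2 or at most 0.5, the summed count at least 20 and the interval clear of 1.

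Across the 88 regions, scaled with TMM, the contractile genes did not move in one direction. By this 2-fold rule 7 regions (7.95%) were higher in the stretched library and 4 (4.55%) lower, where 6.90% and 8.66% of all 81252 gene-assigned regions were. The members' share of higher regions is near that background. When scaled by all counts, which lowers every fold, 2 regions were higher and 25 lower. Their median log2 fold was -0.16, against -0.01 over all assigned regions. Of the higher regions 3 belonged to the light chain pair Myl12a and Myl12b, 2 to Actn1, and 1 each to Myh10 and Tpm2, while the lower ones were 2 at Actn1 and 1 each at Myh9 and Tpm1.

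**Figure D1:**
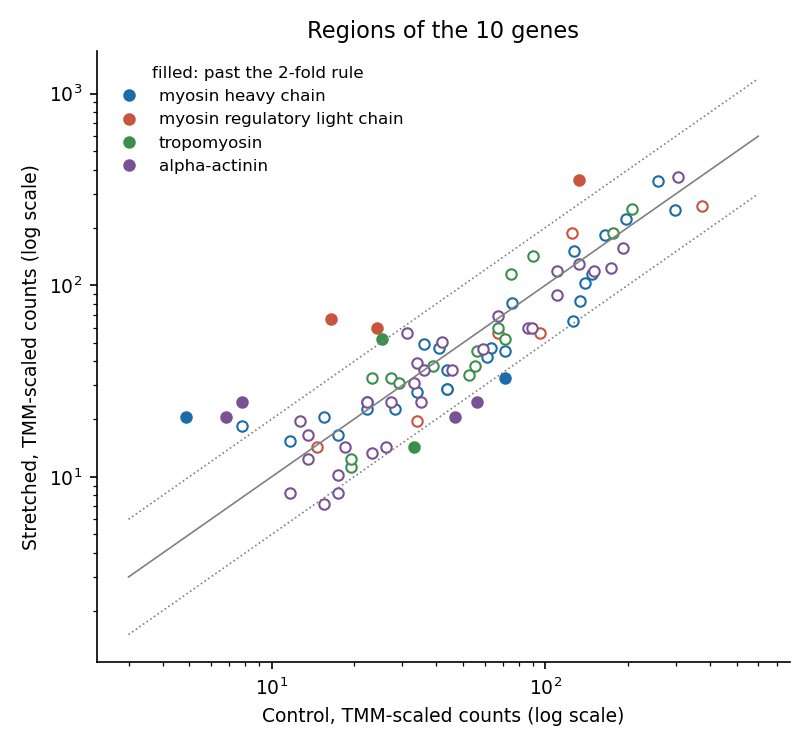
TMM-scaled counts of the 88 regions in the stretched library (vertical, log scale) against the control library (horizontal, log scale), coloured by protein family. The solid line is equality, dotted lines are 2-fold, and the 11 filled points passed the 2-fold rule, 7 above the line and 4 below it.

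By family, the 28 heavy chain regions summed to 2089 counts in the stretched and 2374 in the control library, a fold of 0.930 (0.876 to 0.987), and the 34 actinin regions to 1824 and 2131, a fold of 0.904 (0.849 to 0.963). The 9 light chain regions summed to 1045 and 910, a fold of 1.21 (1.11 to 1.33). The single Myl12a region gave 345 and 137 of these counts, and 5 of the 9 regions had folds below 1. The 17 tropomyosin regions summed to 1118 and 1099, a fold of 1.07 (0.988 to 1.17). These family sums were not repeated with other scalings. Summed over all its regions, Myl12a was the only gene past 2-fold. The interval of the summed fold lay above 1 for 3 genes (Myl12a, Tpm2 and Tpm4), below 1 for 2 (Myh10 and Actn4) and spanned 1 for 5. Over all 16949 genes with an assigned region, 36.1% had an interval above 1 and 18.6% below it by the same rule, and by the 2-fold rule 4.71% were higher and 2.60% lower, where 1 of the 10 genes was higher and none lower. Tpm2 and Tpm4 turned to 0.918 and 0.855 when scaled by all counts, which lowers every fold, whereas Myl12a stayed above 1 at 1.88.

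**Figure D2:**
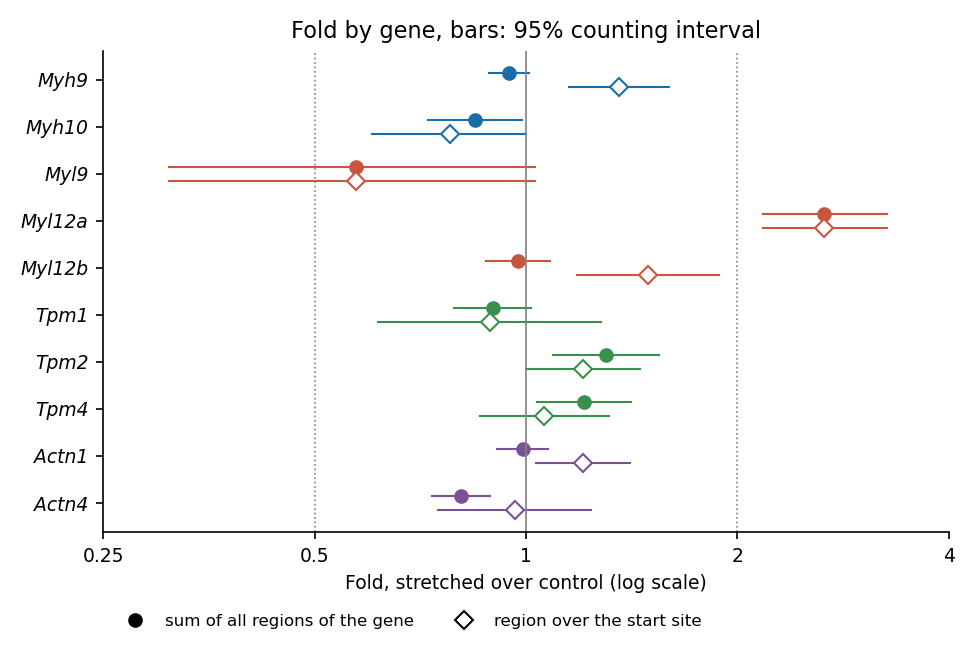
Fold, stretched over control, on a log scale for each gene. Filled circles are the sum of all regions of the gene, open diamonds the region over its start site, bars 95% counting intervals, and colours the protein families. Myl12a stands at 2.66 on both measures, and for Myh9, Myl12b and Actn1 the start region lies to the right of the sum, at 1.35, 1.49 and 1.20 against 0.946, 0.975 and 0.989.

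At the start sites, all 10 genes had a region with a listed peak in both libraries. Compared per length on the TMM-scaled count, Myh9 was the most open start in both, with 313 counts per kb in the stretched and 231 in the control library, and Myl9 the least, with 27.7 and 48.4. In the stretched library Myl12a followed Myh9 with 247 counts per kb, ahead of Actn1 with 219, while in the control library Actn1 was second with 182 and Myl12a stood at 92.9, below Myh10 with 116 and Actn4 with 110. The median over all 10369 start regions was 103 counts per kb in the stretched and 83.1 in the control library. The tropomyosin starts lay near these medians, Tpm2 at 102 stretched and 84.8 control, Tpm4 at 83.3 and 78.4, and Tpm1 at 73.8 and 83.1. Myl12b stood at 107 and 71.6, so that in the stretched library it, Actn4 with 106 and Tpm2 had nearly the same level. Of the 10 start regions 4 had an interval above 1 (Myh9, Myl12a, Myl12b and Actn1) and none below it, against 45.2% and 8.60% of all start regions. By the 2-fold rule only Myl12a was higher and none lower, where 9.88% and 2.15% of start regions were.

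**Figure D3:**
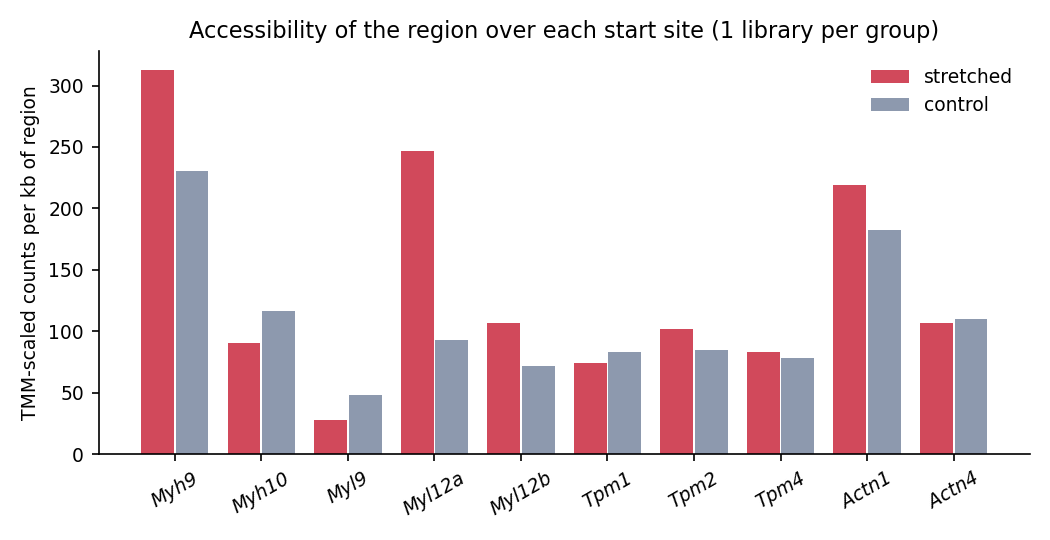
TMM-scaled counts per kb of the region over each start site, stretched bars left of control bars, 1 library per group and so no error bars. The bars of Myl12a, 247 and 92.9, show the widest gap in favour of the stretched library, and Myl9 is lowest in both.

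The myosin regulatory light chain genes held the greatest contrast. Myl12a and Myl12b lie next to each other on chromosome 17, read in the same direction, with start sites 12.0 kb apart, and encode light chains that carry the activating phosphorylation sites of non-muscle myosin II. The spans are chr17:70993793-71002533 for Myl12a and chr17:70973963-70990516 for Myl12b, both on the minus strand. The Myl12a start region (chr17:71001710-71003144) had 345 counts in the stretched and 137 in the control library. That is a fold of 2.66 (2.18 to 3.27), a value reached by 164 of all 10369 start regions (1.58%). The authors' summit pileup there, in whole fragments, was 182 in the stretched library, against 74 in the control. The stretched library had fewer filtered fragments in all, 23876613 against 31944854 in the control. The summits lay 145 and 146 bases past the start site, about the same place in both libraries. The annotated span of the neighbour Myom1, which encodes a protein of the sarcomere M-band, reaches to 188 bases from this region, although the start site listed for Myom1 lies 17.0 kb away. Of 6 striated muscle markers 5 had a listed peak within 1 kb of a gene end in both libraries. Their counts there summed to 987 in the stretched and 1176 in the control library, a fold of 0.887 (0.814 to 0.966). Myh4 had 0. Mylpf alone held 646 and 708 of these counts. Actn3 held 157 and 252, although the regions assigned to Actn3 held 15 and 24. Tnnt3 had more stretched than control counts, 46 and 41. Over the regions assigned to the list the fold was 0.921 (0.844 to 1.01). The Myl12a fold was 2.02 with the trend of fold on count removed, 2.41 when scaled by the counts outside the large regions, and 1.88, short of the 2-fold rule, when scaled by all counts.

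Myl12b, the neighbour, had folds above 1 from its start to its end and below 1 beyond it, with 2 of its 7 regions higher by the 2-fold rule. Its start region (chr17:70989591-70991342) had 182 and 129 counts, stretched and control, a fold of 1.49 (1.18 to 1.88), or 1.05 when scaled by all counts. A region 4742 bases past the start (chr17:70985513-70986035), inside the gene, had 65 counts in the stretched and 17 in the control library, a fold of 4.04 (2.34 to 7.35), and a peak was listed there in the stretched library alone. At the far end of the gene, 111 bases outside the span (chr17:70973210-70973852), the counts were 58 and 25, and the fold 2.45 (1.51 to 4.09), or 1.73 (1.07 to 2.89), short of the 2-fold rule, when scaled by all counts. The 4 regions still further away had folds of 0.593 to 0.986.

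Among those 4, a region of 245 bases, 10063 bases outside the span (chr17:70963656-70963900) held 252 stretched and 385 control counts, a fold of 0.692 (0.588 to 0.813). At 1057 and 1529 scaled counts per kb it was the densest region of all 88, and it gave 37.0% of the stretched and 52.2% of the control counts of Myl12b. The summed fold of Myl12b was therefore 0.975 (0.877 to 1.08) over all 7 regions, 1.28 (1.11 to 1.48) without that region, 1.55 with regions within 10 kb and 1.79 with regions inside the span alone.

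**Figure D4:**
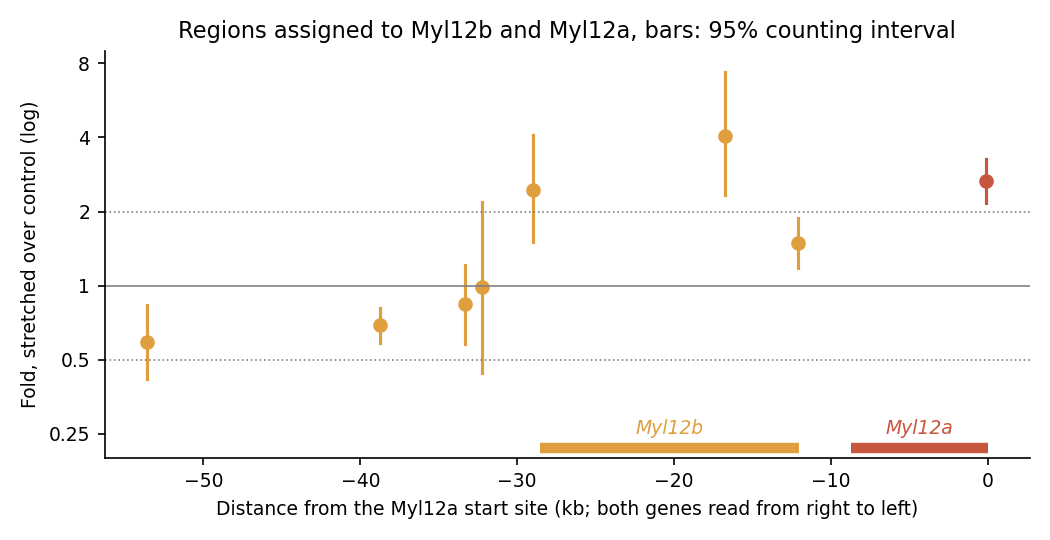
Fold, stretched over control, on a log scale for the 8 regions of Myl12b (light) and Myl12a (dark) by distance from the Myl12a start site in kb, with 95% counting intervals and the gene spans as bars at the bottom. The start, inner and end regions of Myl12b and the start of Myl12a lie above 1, and the 4 regions beyond the end of Myl12b lie below 1.

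Myl9 (chr2:156775408-156781657, plus strand), which encodes a light chain best known from smooth muscle, was the least open of the 10 starts. Its single region (chr2:156774937-156775640), over the start site, had 19 counts in the stretched and 35 in the control library, a fold of 0.574 (0.310 to 1.03) that counting error cannot tell from 1. Compared within the family, the Myl12a start fold was 1.78 times that of Myl12b (1.31 to 2.44) and 4.62 times that of Myl9 (2.48 to 8.87). The Myl12b start fold was 2.59 times that of Myl9 (1.37 to 5.03). These are 3 of 8 pairs compared within families, with no adjustment of the intervals. Of 8 smooth muscle and pericyte markers, 4 had a listed peak within 1 kb of a gene end in the stretched library and 5 in the control. Their counts there summed to 413 and 553, a fold of 0.789 (0.693 to 0.898), with Actg2 at 0. Smtn alone held 212 and 274 of these, and Tagln, with no region assigned to it, 45 and 84. Cnn1, at 22 and 20, and Des, at 13 and 7, had more stretched than control counts. Over the regions assigned to the list the fold was 0.963 (0.885 to 1.05). The part of such cells in the Myl9 value was not tested. In the sequences above, the Myl9 window holds the CArG box, the Myl12a window an AP-1 and a TEAD motif, and the Myl12b window none of the 3.

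Of the heavy chain genes, Myh9 (chr15:77760585-77842175, minus strand), which encodes non-muscle myosin IIA, had a start fold above 1 and a fold below 1 over its other regions together. The start region (chr15:77841663-77842783) had 341 counts in the stretched and 266 in the control library, a fold of 1.35 (1.15 to 1.60). That fold was 0.973 with the trend of fold on count removed and 0.958 when scaled by all counts. The other 20 regions summed to 1441 and 1725 counts, a fold of 0.883 (0.823 to 0.947), so that the start fold was 1.53 times theirs (1.28 to 1.84). That ratio does not depend on the scaling of the libraries, but it does depend on the trend of fold on count. With the trend removed, the start fold and the summed fold of the gene lay closer, at 0.973 and 0.814 against 1.35 and 0.946.

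Inside Myh9, 1 region was lower by the 2-fold rule. This region, 37213 bases past the start (chr15:77804648-77805276), had 32 stretched and 73 control counts, a fold of 0.463 (0.296 to 0.711), with a listed peak in the control alone. Just short of the 2-fold rule, the region 23394 bases in had 63 and 130 counts, a fold of 0.512 (0.373 to 0.697), and the one 5785 bases in had 81 and 138, a fold of 0.620 (0.465 to 0.822). They alternated with sites that did not differ beyond counting error, such as the one 20129 bases in with 217 and 203 counts, at 1.13 (0.929 to 1.37). The strongest inner site, 43250 bases past the start, had 241 counts in the stretched and 305 in the control library, a fold of 0.835 (0.702 to 0.992). Of the 4 regions upstream, the strongest, 15246 bases outside the span, had 177 and 170 counts and a fold of 1.10 (0.886 to 1.37). The farthest, 34541 bases outside, had 44 and 73, a fold of 0.637 (0.428 to 0.938), and the other two had folds of 1.37 and 0.822 with intervals that spanned 1.

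Myh10 (chr11:68691915-68816626, plus strand), which encodes non-muscle myosin IIB, had a summed fold of 0.847 (0.727 to 0.987), from 307 counts in the stretched and 383 in the control library. Its start region (chr11:68691174-68692443) had 112 and 152 counts, a fold of 0.779 (0.604 to 1.0004). A site 16091 bases outside the span, on the start side, had 100 and 144, a fold of 0.734 (0.563 to 0.954). The 1 region past 2-fold, 26538 bases outside the span on the same side (chr11:68665111-68665377), was a weak one with 20 stretched and 5 control counts, a fold of 4.23 (1.54 to 14.4), and was listed as a peak in the stretched library alone. The 4 regions inside or past the end of the gene, each with at most 51 summed counts, had folds of 0.802 to 1.32 and intervals that spanned 1. The Myh9 start fold was 1.74 times that of Myh10 (1.29 to 2.36).

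The tropomyosin genes had start regions whose folds each had an interval that spanned 1. Tpm1 (chr9:67022590-67049672, minus strand), whose product lies along actin filaments in many cell types, had 58 counts in the stretched and 69 in the control library at its start region (chr9:67048835-67049642), a fold of 0.888 (0.615 to 1.28). Its strongest region was 5409 bases inside the gene, with 111 and 77 counts and a fold of 1.52 (1.13 to 2.06). The only Tpm1 region past the rule lay 49607 bases outside the span, at the limit of the assignment, with 14 and 34 counts and a fold of 0.435 (0.216 to 0.832). The other 8 Tpm1 regions had folds of 0.581 to 1.21, each with an interval that spanned 1.

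Tpm2 (chr4:43513726-43523583, minus strand) had 244 stretched and 214 control counts at its start region (chr4:43522001-43524456), a fold of 1.20 (0.999 to 1.45). The region near the other end of the gene (chr4:43514263-43514976), 534 bases from Car9, a gene for a carbonic anhydrase, had 51 and 26 counts and a fold of 2.07 (1.27 to 3.46). That fold was 1.88 when scaled by the counts outside the large regions and 1.47 when scaled by all counts. Tpm4 (chr8:72135288-72153142, plus strand), which encodes a tropomyosin of non-muscle cells, had 183 and 182 counts at its start region (chr8:72134847-72137103), a fold of 1.06 (0.861 to 1.31). A broad region 11326 bases inside Tpm4 (chr8:72145569-72147660) had 138 stretched and 93 control counts, a fold of 1.57 (1.20 to 2.06). The 3 pairs of tropomyosin starts had fold ratios of 0.738 (0.487 to 1.12), 0.836 (0.546 to 1.28) and 1.13 (0.853 to 1.51), for Tpm1 over Tpm2, Tpm1 over Tpm4 and Tpm2 over Tpm4.

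Between the alpha-actinin genes, the called regions all lay at Actn1. Of its 22 regions 9.09% were higher and 9.09% lower, near the 6.90% and 8.66% of all assigned regions. Actn1 (chr12:80167542-80260420, minus strand), which encodes an actinin of stress fibres and focal adhesions, held 4 of the 11 called regions and yet a summed fold of 0.989 (0.909 to 1.08), from 1064 and 1137 counts. Its start region (chr12:80259370-80261046) was the member region with most counts, 358 in the stretched and 314 in the control library, at a fold of 1.20 (1.03 to 1.41), and at 0.845 with the trend on count removed and 0.852 when scaled by all counts. Inside the gene, the 2 called higher sites lay nearer the start than the 2 called lower ones. At 20851 bases past the start (chr12:80239267-80239758) there were 20 and 7 counts, a fold of 3.02 (1.23 to 8.45), and at 24794 bases (chr12:80235280-80235859) 24 and 8, a fold of 3.17 (1.38 to 8.16). The adjoining region at 25889 bases had 55 stretched and 32 control counts, a fold of 1.82 (1.15 to 2.90).

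Further into Actn1 lay the lower sites. At 41889 bases (chr12:80218253-80218696) there were 20 stretched and 48 control counts, a fold of 0.440 (0.248 to 0.756), and at 51948 bases (chr12:80207935-80208895) 24 and 58, a fold of 0.437 (0.260 to 0.715). Both were listed as peaks in the control library alone. Between them, a region at 43864 bases had 38 and 35 counts, a fold of 1.15 (0.706 to 1.87). Another at 45615 bases had 10 and 18, a fold of 0.587 (0.242 to 1.34). The higher sites were weak, with at most 32 summed counts, and neither was tested at a minimum of 50. Scaled by all counts their intervals spanned 1, at 2.13 (0.867 to 5.98) for the nearer and 2.24 (0.974 to 5.77) for the farther. The 5 regions upstream of the start had folds of 0.462 to 0.704, each with an interval that spanned 1. The start fold of Actn1 was 1.33 times that of its other 21 regions together (1.10 to 1.60). With the trend of fold on count removed this order turned, and the start fold of 0.845 lay below the summed fold of the gene, 0.901.

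Actn4 (chr7:28893248-28962351, minus strand), which encodes an actinin of cell junctions and moving cell edges, had no region past 2-fold and yet a summed fold whose interval lay furthest below 1 among the 10 genes. Its 12 regions held 760 counts in the stretched and 994 in the control library, a fold of 0.808 (0.734 to 0.889), and 10 of the 12 had folds below 1. The start region (chr7:28961693-28962900) stood at 125 and 137 counts, a fold of 0.964 (0.750 to 1.24). Inside the gene, the region 22369 bases in had 120 stretched and 179 control counts, a fold of 0.708 (0.557 to 0.898). Further in, the region at 36787 bases had 58 and 92 counts, a fold of 0.666 (0.471 to 0.935), and the one at 58896 bases 58 and 89, a fold of 0.689 (0.486 to 0.969). The strongest region, 31025 bases in, had 153 and 198, a fold of 0.817 (0.657 to 1.01). The start fold was 1.23 times that of the other regions (0.938 to 1.62). The Actn1 start fold was 1.25 times that of Actn4 (0.929 to 1.68), which counting error cannot tell from 1. With the other scalings and the trend removal the summed fold of Actn4 lay between 0.571 and 0.812. Scaling by the filtered fragments of each library, which would raise every fold, was not run.

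**Figure D5:**
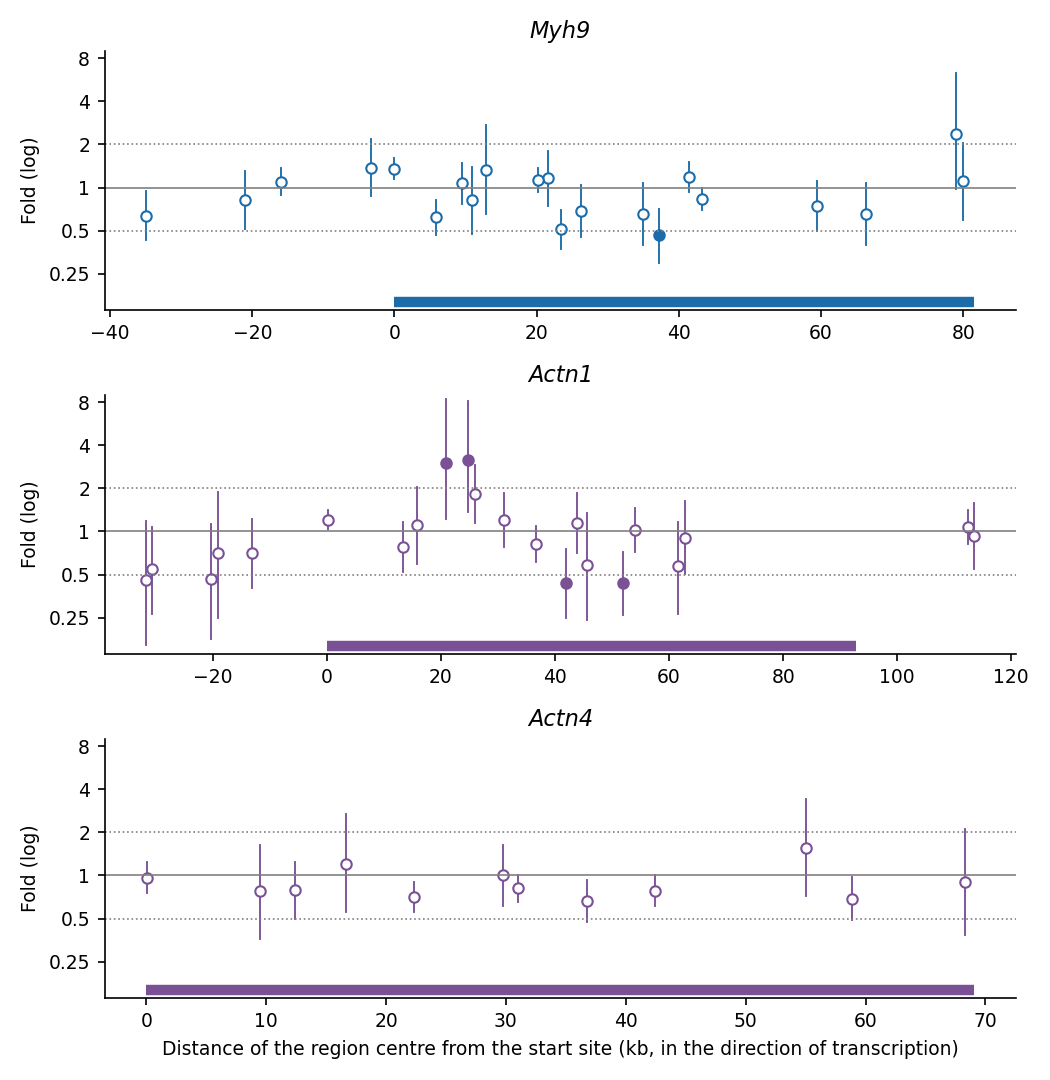
Fold, stretched over control, on a log scale for the regions of Myh9, Actn1 and Actn4, by distance of the region centre from the start site in kb along the gene, with 95% counting intervals and the gene span as a bar. Filled points passed the 2-fold rule: 1 lower site in Myh9, 2 higher and 2 lower in Actn1, and none in Actn4.

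Summed as classes, the start regions of the 10 genes had a higher fold than their other regions, though gene by gene this held in 4 of 8. Myl12a, with 345 stretched and 137 control counts, and Myl9 enter the start sum alone. The direction of the start class depended on the processing. The 10 start regions summed to 1967 stretched and 1635 control counts, a fold of 1.27 (1.19 to 1.36), and the 78 others to 4109 and 4879, a fold of 0.890 (0.854 to 0.928). When scaled by all counts the folds were 0.899 (0.841 to 0.960) for start and 0.629 (0.604 to 0.656) for other regions. With the trend of fold on count removed they were 0.991 (0.928 to 1.06) and 0.835 (0.800 to 0.870), and the start folds of Myl12a and Myl12b alone lay above 1. The median log2 fold was 0.18 over the members' start regions and -0.27 over their other regions, where all start regions had 0.31 and all other assigned regions -0.06. Over all genes the medians were thus in the same order, but the summed folds were not. They were 1.35 (1.34 to 1.35) for all start regions and 1.44 (1.44 to 1.44) for all others. These others held 8453619 stretched counts, more than the 6027023 of all regions outside the large regions. Their sum therefore includes large regions, and the order of the sums without the large regions was not tested. By the 2-fold rule 6 of the 78 other regions (7.69%) were higher and 4 (5.13%) lower, where 6.47% and 9.62% of all other assigned regions were. The 25 member regions outside a gene span had a median log2 fold of -0.51, and 19 of them a fold below 1. Of the 8 genes with other regions, the start fold exceeded that of the others beyond counting error in Myh9, Myl12b and Actn1, and in Tpm2 it was smaller (ratio 0.582, 0.336 to 0.989).

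Peaks, which the authors called on each library alone, gave a second description of the same reads. A peak was listed in both libraries at 51 of the 88 regions, in the stretched library alone at 10, in the control alone at 8 and in neither at 19. Over all assigned regions these classes held 61.0%, 14.1%, 9.24% and 15.6%. All 4 lower regions had a listed peak in the control alone. Of the 7 higher regions 3 had one in the stretched library alone, 3 in both and 1 in neither. The authors' pileup at the highest summit of each start region, not scaled to depth, was higher in the stretched library at 9 of the 10 genes. It was 161 stretched and 142 control at Myh9, 145 and 103 at Actn1, 105 and 84 at Tpm2, 83 and 36 at Myl12b, 53 and 51 at Tpm4, and 11 and 14 at Myl9. At Myh10 it was 72 and 61, at Actn4 71 and 52 and at Tpm1 37 and 30, although the scaled counts at these 3 starts gave folds below 1. The highest summits were not always near the start or the same in both libraries. They lay 1127 and 1124 bases past the start at Tpm2 and 1324 and 1326 at Tpm4, stretched and control. At Myl12b they lay at -173 and 127 bases. Where both libraries had a peak at a start region, the median pileup over all genes was 70 stretched and 48 control. The authors' fold enrichment over local background at the Myl12a start summit was 13.9 in the stretched and 9.88 in the control library.

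The other contractility genes, a list of 35 that holds the kinases, phosphatases, actins, filamins and SRF cofactors of the same machinery, were mixed as well. Of their 276 regions 13 (4.71%) were higher and 20 (7.25%) lower, against the 6.90% and 8.66% of all assigned regions, with a median log2 fold of 0.07. Of the 34 genes with regions 16 had a summed interval above 1 and 5 below, where 36.1% and 18.6% of all 16949 genes had by the same rule. This gene count was not repeated with other scalings, and when scaled by all counts the region calls became 0 higher and 55 lower. Mrtfa, a cofactor of SRF, had most called regions, 6 of 23 lower and none higher, with 1014 stretched and 1356 control counts and a fold of 0.790 (0.728 to 0.858). Its relative Mrtfb had 1 of 21 lower and a fold of 1.10 (1.02 to 1.19), from 1285 and 1233 counts.

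Next by called regions, with 3 each, came Pdlim5, Pdlim1, Mylk, Vcl and Ppp1cb. Pdlim5 and Pdlim1, which encode adaptors that bind alpha-actinin, each had 3 higher regions and none lower, with 1359 stretched and 962 control counts at Pdlim5, a fold of 1.49 (1.37 to 1.62), and 1227 and 889 at Pdlim1, a fold of 1.46 (1.34 to 1.59). Mylk, the kinase of the regulatory light chains, had 1 higher and 2 lower regions and a fold of 0.922 (0.808 to 1.05). Vcl, which encodes vinculin of adhesion sites, had 1 higher and 2 lower as well, at 0.993 (0.898 to 1.10). Ppp1cb, a catalytic subunit of the myosin phosphatase, had 3 lower and none higher, at 0.970 (0.862 to 1.09).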

How the data were processed

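ATAC-seq was analysed in 2 libraries, 1 stretched and 1 control, grouped by the treatment label. Tools named in the submitters' processing notes are HTSeq, Picard, SAMtools, MACS2 2.1.0.20151222 and Bowtie2 2.2.6, with the build GRCm38. The deposited counts are raw counts over 109257 merged regions. The merging of regions, the counted unit (read or fragment), the treatment of duplicates at counting and any Tn5 shift are not given in the sources at hand, so counts may hold duplicates. Peaks were called with MACS2 on each library alone with 0.05 as the q cutoff and no control file, per the file headers, from input named there as free of duplicates. The deposited pileup is a signal in whole fragments at the summit, although the header announces scaled tracks. The deposited fold enrichment is a ratio to local background within a library, and the deposited -log10 p and q values are set against the same background. Summit files repeat the peak tables and were not used.

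From the counts, TMM factors (edgeR 4.0.16, R 4.3.3) scaled the libraries over all regions, and the ratio of the effective sizes, stretched over control, was 0.946. Folds carry exact Clopper-Pearson intervals (95%) of the share of the summed count in the stretched library. Ratios of folds carry exact conditional intervals of the odds ratio (scipy 1.17.1). Levels per kb use the scaled count over the region length. Reads carry no molecular identifiers and are not independent molecules. The calculation was also run on simulated Poisson counts with known folds, drawn with the same size ratio. That run covers counting error only, so it cannot speak to animal variation, duplicates or the choice of scaling. Region starts, 0-based in the table, are printed 1-based. Genes came from a RefSeq table (GRCm38.p6, 21900 protein-coding genes), and start sites and strands from RefSeq windows, which cover 17492 of these genes and all 10 members. Exon, intron and UTR annotation was not used here. The 35 contractility genes all matched a symbol.

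Named regions are, per member, the start region, the region with most counts and each called region, and for the other list the 3 genes with most called regions (ties included) and the 3 with most counts. Other member regions were picked for naming with their values in view. The members and lists were chosen with earlier results of these data known. Alternatives were other scalings (DESeq2 1.42.0 size factors among them), a lowess trend (statsmodels 0.14.6), other limits, other assignments and stricter peaks. Python 3.11.15, numpy 2.4.6, pandas 2.3.3 and matplotlib 3.10.9 were also used.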

Additional observations from a re-analysis of the deposited data

How the results depend on the processing

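Counting error alone limits a region of 20 counts to wide intervals, and 1 library per group leaves animal, batch and treatment inseparable. No paired analysis was possible because each group has 1 library. The 7 higher and 4 lower member regions became 2 and 25 when scaled by all counts. A minimum of 50 counts left 4 higher, and a fold limit of 1.5 gave 9 lower. The numbers of genes whose summed interval lay above and below 1, 3 and 2, became 1 and 8 when scaled by all counts, 1 and 7 with the counts outside the large regions, and 1 and 5 with the trend on count removed. With regions within 10 kb, and inside the span alone, 1 gene lay below 1. For start regions the 4 above 1 and 0 below became 1 and 6 when scaled by all counts, 1 and 2 with the trend removed, and 2 lay below with the counts outside the large regions. Scaling by all counts turned the summed folds of Tpm2 and Tpm4 to 0.918 and 0.855 and the start folds of Myh9 and Actn1 to 0.958 and 0.852. Removal of the trend turned these starts to 0.973 and 0.845. The contractility list, with 13 higher and 20 lower, had 0 and 55 when scaled by all counts, 7 higher with the counts outside the large regions, 8 and 11 at a minimum of 50, 9 lower with the nearest gene end, and 34 and 34 at a fold limit of 1.5. The scalings by totals lower every fold and the higher minimum leaves fewer regions. Scaling by the filtered fragments, of which the stretched library had fewer, would raise every fold and was not run. The genes with sums below 1 were therefore not tested against a scaling of that kind. The cause of the other shifts was not tested. Leaving out the densest Myl12b region, an alternative chosen after seeing the data, moved its sum to 1.28. Peaks were listed at 61 member regions in the stretched and 59 in the control library, and both counts stayed within 1.5 times these with stricter peaks or overlap.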
